A study of Mus musculus with 6 samples.

Results

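The genes described here are those of complement, antigen presentation and the interferon response. They were measured in RNA from ribosomes purified with a tag aimed at skeletal muscle endothelium, with and without 17β-estradiol (E2). They were chosen by name, from 37 listed symbols and every symbol that starts with H2-, the prefix of the mouse major histocompatibility complex. Of the listed symbols, 36 were in the count table, and C1s was not. With 44 H2- symbols this gave 80 members of 24062 genes: 8 complement genes, 40 class I genes, 12 class II genes, 15 interferon-induced genes, 3 leukocyte markers and 2 H2- symbols that encode no histocompatibility chain.

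TRAPseq (RNA-seq of transcripts bound to affinity-purified ribosomes) was done on gastrocnemius and soleus. All 6 libraries, vehicle included, came from mice of B6.129S4 background with a CAG-EGFP/Rpl10a and birA construct in the ROSA26 locus, crossed with VECad-Cre mice so that ribosomal protein L10a carries GFP where the VE-cadherin promoter drives Cre (GFP-L10aEC mice). Females were ovariectomized and received placebo pellets (vehicle, n = 3) or E2 pellets (n = 3) for 4 weeks. The labels call the mice 4 weeks old when treated, the methods give ovariectomy at 6 weeks, and each library's title holds a pair of numbers. The methods speak of 6 biological replicates per group, whereas the files hold 3 libraries per group, and whether a library pools animals is stated in neither. Nothing in the labels separates cultures, cages or preparation days, so p-values measure the spread between these libraries only.

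Complement is a cascade of plasma proteins in which C3 is the central component, cleaved by convertases that contain either C4 and C2 or factor B. Class I molecules, a heavy chain paired with β2-microglobulin, display peptides from the cell's own proteins on nearly every nucleated cell, and class II molecules display captured antigen, mainly on professional antigen-presenting cells. Interferons raise the transcription of many of these genes through STAT and IRF factors. Endothelial cells express class I at all times and can be induced by interferon-γ to express class II.

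The libraries were shallow, with 84823 to 451034 counts each, so 1 count was worth 2.22 to 11.8 counts per 1000000 of the library total (CPM). Of the 80 members, 22 had 0 counts in all libraries, 27 had 1 to 9 counts in total and 31 had 10 or more. The ribosomal RNA precursor gene Rn45s took 28.5% to 42.9% of each library. Some features of the libraries bear on every comparison. Vehicle replicates 1 and 2 held 40 and 63 counts of 4 Y-linked genes, and the other 4 libraries, like the females that the methods describe, held 0. Vehicle replicate 3, the shallowest library, had a chi-square per degree of freedom of 4.76, 5.08 and 9.48 against E2 replicates 1 to 3. Against vehicle replicates 1 and 2, the deepest libraries, it was 10.8 and 10.3. This measure grows with depth, so nearness cannot be read from it alone. The 20 endothelial markers summed to 5037 and 6496 CPM in vehicle replicates 1 and 2, 1544 CPM in vehicle replicate 3 and 969 to 2383 CPM with E2, most of it from Cd36, and without Cd36 to 1226, 1299, 436 and 183 to 791 CPM. None of the 20 was at 0 over all libraries, and the defining markers Cdh5 and Pecam1 had 317 and 62 counts. Muscle fiber markers, 17 genes, made 73474 to 110744 CPM, more than the endothelial markers in every library. Which cells the members' counts come from was not tested. The labels name a stranded kit, but whether reads were assigned by strand is stated in neither labels nor methods. The muscle enzyme gene Ckm had 655 counts and A930016O22Rik, an antisense gene inside it chosen after its values were seen, 32598, and which strand the members' counts come from was not tested. In bulk libraries like these, fewer cells of a type and less RNA per cell cannot be told apart. Vehicle replicates 1 and 2 were therefore left out together in a further fit, whose log2 fold changes stand beside the main results. That fit leaves vehicle with 1 library. Its p-values and calls rest on the spread between E2 libraries alone. Each library was also left out alone. Vehicle replicate 3 was singled out from these same counts, so small p-values without it do not count as support.

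C3 was the complement member with the most counts and, of the 4 members that passed a filter on low counts, the only one past an adjusted p of 0.05. Its counts were 10, 35 and 2 in vehicle replicates 1 to 3 and 16, 54 and 41 in E2 replicates 1 to 3, or 34.6, 77.6 and 23.6 CPM against 127, 272 and 204 CPM. No vehicle library reached the lowest E2 library. The means were 45.3 ± 28.5 and 201 ± 72.5 CPM (SD, n = 3 each), and C3 rose by a log2 fold change of 2.14 (SE 0.49, edgeR adjusted p = 0.0222). Without vehicle replicate 3, the shallowest library, the log2 fold change was 2.06 (edgeR adjusted p = 0.000219). The call was lost without vehicle replicate 1 (1.89, edgeR adjusted p = 0.161), E2 replicate 2 (2.14, 0.0966) or E2 replicate 3 (2.12, 0.0862), with the direction kept each time. Without vehicle replicates 1 and 2 together the log2 fold change was 3.16, against a single vehicle library with 2 counts. A filter that asks for 10 counts in each library drops C3, which had 2 in vehicle replicate 3. Over all tested genes, 2.5% were called higher and 2.97% lower at this threshold.

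**Figure D1:**
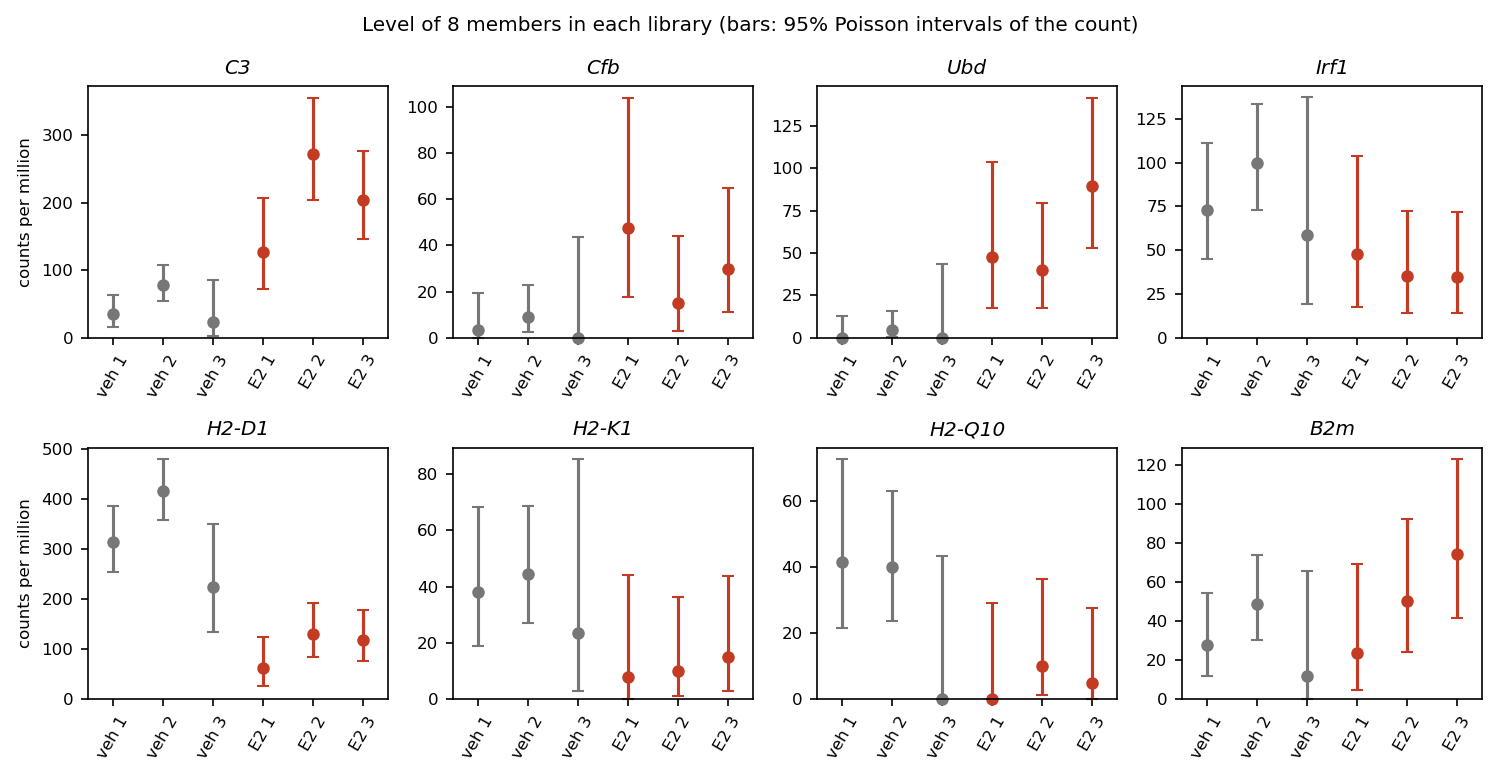
Level of 8 members in each library, in CPM (vertical axis, linear, one scale per panel) for vehicle (veh, gray) and E2 (red) replicates 1 to 3; points are single libraries and bars are 95% Poisson intervals, which cover counting error only. C3 lay between 23.6 and 77.6 CPM in vehicle libraries and between 127 and 272 CPM in E2 libraries, whereas H2-D1 lay between 224 and 417 CPM and between 63.5 and 131 CPM.

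Cfb encodes factor B, which forms the alternative pathway convertase with C3b. It had 1, 4 and 0 counts in vehicle libraries and 6, 3 and 6 in E2 libraries, 20 in all, too few to pass the filter on low counts. The E2 libraries, at 47.6, 15.1 and 29.8 CPM, lay above the vehicle libraries, at 3.46, 8.87 and 0 CPM. Fitted without the filter, its log2 fold change was 2.23 (SE 0.87, unadjusted p = 0.0106, edgeR adjusted p = 0.248), its adjusted p lying between 0.145 and 0.783 when single libraries were dropped. The log2 fold change then lay between 1.92 and 3.18, highest without vehicle replicate 2, which held 4 of the 5 vehicle counts. Without vehicle replicates 1 and 2, which left vehicle with 1 library at 0 counts, the fitted log2 fold change was 5.25. Of its transcript, 81.4% of windows of 50 bases also belong to Gm20547, an annotated readthrough from the neighboring gene.

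C1qb, a chain of the C1q recognition molecule that macrophages make in most tissues, had 1, 3 and 0 counts in vehicle libraries and 0, 3 and 4 in E2 libraries, and the groups overlapped. The rest of the complement members were C1qc with 6 counts, C4b, Cd55 and Cfd with 4 each and C1qa with 3. Summed over the 8 members, complement made 51.9, 109 and 47.2 CPM in vehicle libraries and 191, 322 and 269 CPM in E2 libraries. C3 carried most of it. Without C3, the sum was 17.3, 31.0 and 23.6 CPM against 63.5, 50.4 and 64.7 CPM, from 21 counts over the vehicle libraries and 31 over the E2 libraries. Without C3 and Cfb, a sum added after seeing the data, it was 13.8, 22.2 and 23.6 CPM against 15.9, 35.3 and 34.8 CPM, and the groups overlapped.

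Of 30 further complement genes, 8 had 10 or more counts and only Masp2, a protease of the lectin pathway, could be tested. Its log2 fold change was 0.69 (SE 0.45, edgeR adjusted p = 0.346). Exons of Masp2 overlap those of Tardbp on the opposite strand by 1817 bases. Reads of such pairs cannot be told apart here.

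The class I heavy chain gene H2-D1 had the most counts of any member, 356, and lay lower with E2. Its counts were 91, 188 and 19 in vehicle libraries and 8, 26 and 24 in E2 libraries, or 315, 417 and 224 CPM against 63.5, 131 and 119 CPM. The groups did not overlap, and vehicle replicate 3 lay between the other vehicle libraries and the E2 libraries. The means were 319 ± 96.5 and 105 ± 36.1 CPM (SD, n = 3 each). The log2 fold change was -1.46 (SE 0.46), with an unadjusted p of 0.00524 and an edgeR adjusted p of 0.068. H2-D1 was thus not called, whereas it was called by DESeq2 (adjusted p = 0.0489), by edgeR's exact test (0.0268), with library totals in place of TMM factors (0.0469) and without vehicle replicate 3 (0.00106). Without any 1 of the other 5 libraries the edgeR adjusted p rose to between 0.154 and 0.281, with the smallest log2 fold change, -1.15 (0.244), without E2 replicate 1. Without vehicle replicates 1 and 2, the libraries with Y-linked counts, its log2 fold change was -0.95, against a single vehicle library with 19 counts. The endothelial marker sum given above was also lower in the E2 libraries than in vehicle replicates 1 and 2, and its part in this difference was not tested.

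H2-K1, the other classical heavy chain, had 11, 20 and 2 counts in vehicle libraries and 1, 2 and 3 in E2 libraries. At 38.1, 44.3 and 23.6 CPM the vehicle libraries lay above the E2 libraries, at 7.94, 10.1 and 14.9 CPM. Without the filter its log2 fold change was -1.68 (SE 0.76, unadjusted p = 0.0258, edgeR adjusted p = 0.374), and -0.72 without vehicle replicates 1 and 2 (unadjusted p = 0.615). H2-L had 37, 73 and 14 counts in vehicle libraries and 7, 19 and 18 in E2 libraries, or 128, 162 and 165 CPM against 55.6, 95.7 and 89.5 CPM, again without overlap. Its log2 fold change of -0.74 (SE 0.44) had an edgeR adjusted p of 0.295, or -0.56 (0.184) without vehicle replicate 3. It was -0.90 without vehicle replicates 1 and 2, against a single vehicle library. H2-L has no position in either annotation used here, so the share of its counts that could also come from H2-D1 is not known. Of the H2-D1 and H2-K1 transcripts, 14.3% and 8.79% of windows of 50 bases occur in another gene.

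The nonclassical class I genes had values in both directions. H2-Q10, which encodes a secreted class I molecule made mainly in liver, had 12 and 18 counts in vehicle replicates 1 and 2, 0 in vehicle replicate 3 and 0, 2 and 1 in E2 libraries. Of its 33 counts, 30 were thus in the vehicle libraries that also held Y-linked counts. Without the filter its log2 fold change was -2.46 (SE 0.89, unadjusted p = 0.00555, edgeR adjusted p = 0.178). Leaving out vehicle replicate 3 made it -2.78 (adjusted p = 0.0128). Leaving out vehicle replicates 1 and 2 turned the direction, to 3.01, with 0 counts left in vehicle and 3 in E2. H2-T24 (14, 26 and 4 counts against 6, 13 and 6) and H2-Q4 (10, 34 and 3 against 5, 11 and 5) had log2 fold changes of -0.12 and -0.37 without the filter, with SE 0.58 and 0.59. H2-T23, which presents leader peptides of other class I chains, had 1, 5 and 0 counts against 2, 3 and 1.

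Some class I symbols shared 1 set of counts. H2-Q7 and H2-Q9 were identical in every library, at 0, 3 and 0 counts in vehicle libraries and 1, 2 and 4 in E2 libraries, and H2-T22 and H2-T9 were identical at 3, 1 and 0 against 1, 2 and 3. For H2-Q7 and H2-Q9 the E2 libraries lay above the vehicle libraries, at 7.94 to 19.9 CPM against 0 to 6.65 CPM, with an unadjusted p of 0.112. Pooled over libraries the rate was 3.66 times as high with E2, with a 95% counting interval of 0.836 to 21.9.

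B2m, the light chain that class I heavy chains share, overlapped between groups, unlike H2-D1. It had 8, 22 and 1 counts in vehicle libraries and 3, 10 and 15 in E2 libraries, or 27.7, 48.8 and 11.8 CPM against 23.8, 50.4 and 74.6 CPM, and its log2 fold change without the filter was 0.61 (SE 0.60, unadjusted p = 0.303). There were 9.61 H2-D1 counts per B2m count over the vehicle libraries and 2.07 over the E2 libraries, a difference that was not tested. Of the genes that load peptide, Tapbp (tapasin) had 10, 21 and 1 counts against 6, 4 and 12, the peptide transporter subunit Tap1 had 0, 2 and 2 against 0, 2 and 5, and the immunoproteasome subunit Psmb9 had 4, 5 and 1 against 1, 0 and 3. All overlapped between groups. Exons of Tap1 and Psmb9 overlap on opposite strands by 212 bases. Nlrc5, the transactivator of class I genes, had 8 counts, Psmb10 5, and H2-M3, Psmb8 and Tap2 3 each, H2-T10 2, and H2-K2, H2-Q6 and H2-Q8 1 each. The other class I members, H2-Bl, H2-Q1, H2-Q2, H2-Q5, H2-T3 and the H2-M genes apart from H2-M3, had 0. Of the H2- symbols that encode no histocompatibility chain, H2-Ke6 had 6 counts and H2-Ke2 had 0.

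Summed over its 40 members, class I made 727, 956 and 578 CPM in vehicle libraries and 349, 524 and 557 CPM in E2 libraries, and the groups did not overlap. Without H2-D1 it made 412, 539 and 354 CPM against 286, 393 and 438 CPM, and the groups overlapped. Without H2-D1 and H2-L the values were 284, 377 and 189 CPM against 230, 297 and 348 CPM. Of the 15 class I members with 10 or more counts, 3 lay below the vehicle libraries in every E2 library (H2-D1, H2-L and H2-K1) and 2 above (the shared counts of H2-Q7 and H2-Q9). Across all 6843 genes with 10 or more counts, 10.5% lay below and 6.17% above. Without the filter, the median log2 fold change of these 15 members was 0.25, or -0.12 over 13 values when each set of identical counts enters once, beside -0.17 over all genes with 10 or more counts.

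**Figure D2:**
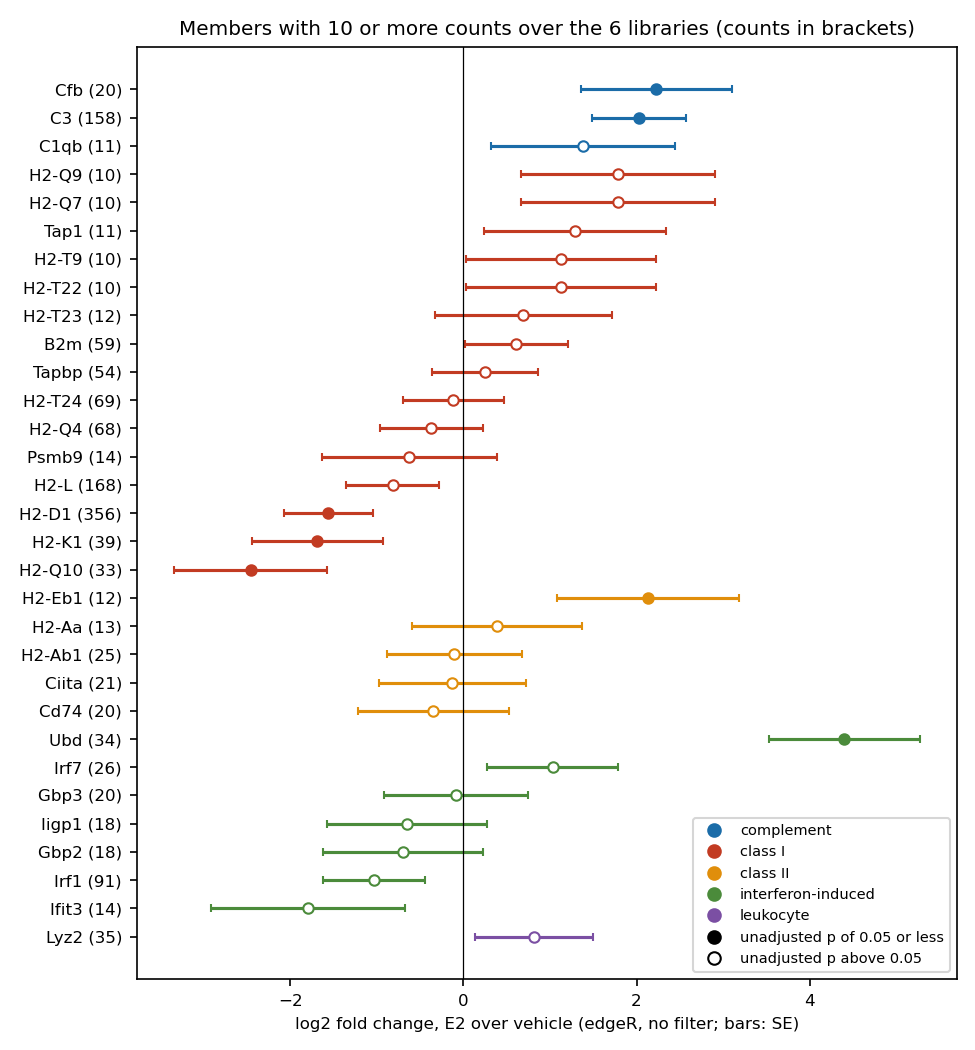
Log2 fold change of E2 over vehicle (horizontal axis) from edgeR without a filter on low counts, with SE bars, for the 31 members with 10 or more counts, whose totals are in brackets; colors give the group and filled points an unadjusted p of 0.05 or less. Cfb, C3, H2-Eb1 and Ubd are filled on the right and H2-D1, H2-K1 and H2-Q10 on the left, and the SE ranged from 0.52 for H2-D1 to 1.12 for H2-Q7.

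Of 20 further antigen presentation genes, 12 had 10 or more counts and 3 could be tested. Canx encodes calnexin, the chaperone that binds new class I heavy chains, and had 268 and 449 counts in vehicle replicates 1 and 2, 17 in vehicle replicate 3 and 29, 36 and 32 in E2 libraries. Its log2 fold change was -1.78 (SE 0.54, unadjusted p = 0.00356, edgeR adjusted p = 0.0572), and its level in vehicle replicate 3 was 200 CPM, inside the range of the E2 libraries, 159 to 230 CPM. Without vehicle replicate 3 its log2 fold change was -2.10 (edgeR adjusted p = 1.87e-05). Without vehicle replicates 1 and 2 it was 0.01, against a single vehicle library. Rfxank, a subunit of the factor that binds class II promoters, had 7, 14 and 4 counts against 9, 12 and 20, a log2 fold change of 1.48 (SE 0.52, unadjusted p = 0.00993, edgeR adjusted p = 0.0856). Its log2 fold change was 1.72 without vehicle replicate 3 (edgeR adjusted p = 0.00594) and 0.83 without vehicle replicates 1 and 2. Exons of Rfxank overlap those of Nr2c2ap on the opposite strand by 1341 bases. The third gene, the chaperone Hspa5, had a log2 fold change of 0.01. Without the filter, Canx was called lower (-1.96, edgeR adjusted p = 0.0154), and 2 of the list were higher at an unadjusted p of at most 0.05 (Rfxank and Rfx5) and 3 lower (Canx, the chaperone Calr and the proteasome activator Psme1), of 19 with a count, where 3.27% of all genes were higher and 6.81% lower at that p. Psme1 had 15 and 31 counts in vehicle replicates 1 and 2, 0 in vehicle replicate 3 and 0, 2 and 4 in E2 libraries, so that vehicle replicate 3 lay at or below every E2 library. Without vehicle replicates 1 and 2 and without the filter, the log2 fold change was -0.70 for Calr and 1.02 for Rfx5. That of Psme1, fitted against a single library at 0 counts, turned positive (3.92).

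Class II transcripts were scarce in both groups. H2-Ab1, a β chain, had 6, 10 and 0 counts in vehicle libraries and 0, 2 and 7 in E2 libraries, and H2-Aa, its α chain partner, had 4, 3 and 0 against 0, 4 and 2. Cd74, the invariant chain, had 2, 7 and 4 counts against 0, 6 and 1, and Ciita, the transactivator of class II genes, had 4, 6 and 3 against 1, 4 and 3. The groups overlapped for all of these. H2-Eb1, another β chain, had 0, 3 and 0 counts against 1, 2 and 6, and its E2 libraries, at 7.94, 10.1 and 29.8 CPM, lay above its vehicle libraries, at 0, 6.65 and 0 CPM. Pooled over libraries its rate was 4.71 times as high with E2 (95% counting interval 1.18 to 27.0), and without the filter its log2 fold change was 2.13 (SE 1.05, unadjusted p = 0.0426, edgeR adjusted p = 0.463). Leaving out single libraries moved this value from 1.22 without E2 replicate 3 (unadjusted p = 0.407) to 4.67 without vehicle replicate 2. The unadjusted p was 0.18 without vehicle replicate 1 and 0.055 without vehicle replicate 3. Without vehicle replicates 1 and 2 the log2 fold change was 4.49, against a single vehicle library with 0 counts. H2-DMb1 had 5 counts and H2-DMa 1, and H2-DMb2, H2-Ea-ps, H2-Eb2, H2-Oa and H2-Ob had 0.

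The 12 class II members together made 62.3, 68.7 and 82.5 CPM in vehicle libraries and 15.9, 101 and 94.5 CPM in E2 libraries, so the group ranges overlapped. In the shallowest library 1 count was worth 11.8 CPM. The 3 leukocyte markers were as sparse. Lyz2, lysozyme of macrophages and neutrophils, had 2, 14 and 1 counts against 2, 6 and 10, a log2 fold change of 0.82 without the filter (SE 0.68, unadjusted p = 0.23), and Cd68 and Ptprc had 5 counts each. A separate list of immune markers, with 21 of its 22 genes in the table, summed to 128, 177 and 259 CPM in vehicle libraries and 143, 257 and 209 CPM in E2 libraries. The macrophage gene Cd163 gave most of these counts, 132, and 8 of the 21 had 0, among them Cd3g and S100a8.

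Ubd, also known as FAT10, encodes a ubiquitin-like modifier induced by interferon-γ and tumor necrosis factor that marks proteins for the proteasome. It had 0, 2 and 0 counts in vehicle libraries and 6, 8 and 18 in E2 libraries, or 0, 4.43 and 0 CPM against 47.6, 40.3 and 89.5 CPM. The groups did not overlap, and both vehicle libraries at 0 were replicates 1 and 3. Pooled over libraries the rate was 25.1 times as high with E2, with a 95% counting interval of 6.41 to 216, and the vehicle rate rests on the 2 counts of vehicle replicate 2. With 34 counts Ubd did not pass the filter on low counts, so its call comes from the fit without it, where its unadjusted p was 4.13e-07 and its edgeR adjusted p 0.000277. The fitted log2 fold change of 4.40 (SE 0.87) depends on how counts of 0 are moderated. The adjusted p rose to 0.0721 without vehicle replicate 1 (log2 fold change 3.90) and to 0.0611 without E2 replicate 3 (3.84). Without vehicle replicates 1 and 2 together the fitted log2 fold change was 6.29. These settings were chosen after seeing the data. Without vehicle replicate 2, which left vehicle at 0 counts, the fitted value was 6.47 (adjusted p = 0.0127). In the fit without vehicle replicates 1 and 2 vehicle was a single library with 0 counts, for which the 95% Poisson interval reaches 43.5 CPM. No exon of another gene overlapped Ubd by 50 or more bases, and none of its 50-base windows occurred elsewhere.

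In the same fit without a filter, 0.221% of 14057 genes were called higher and 0.939% lower at an adjusted p below 0.05, and of 58 members with a count, 2 were called higher (Ubd and C3) and 0 lower. At an unadjusted p of 0.05 or less, 4 members were higher (C3, Cfb, Ubd and H2-Eb1) and 3 lower (H2-D1, H2-K1 and H2-Q10), beside 3.27% and 6.81% of all genes.

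Irf1, a transcription factor that interferon-γ induces and that acts on class I and class II genes, had 21, 45 and 5 counts in vehicle libraries and 6, 7 and 7 in E2 libraries. The vehicle libraries, at 72.7, 99.8 and 58.9 CPM, lay above the E2 libraries, at 47.6, 35.3 and 34.8 CPM. The log2 fold change was -0.93 (SE 0.47), with an unadjusted p of 0.0636 and an edgeR adjusted p of 0.222, and it ranged from -1.01 to -0.61 as single libraries were left out, with an adjusted p of 0.0813 without vehicle replicate 3. Without vehicle replicates 1 and 2, Irf1 did not pass the filter. The groups did not overlap. Irf7, which drives type I interferon transcription, had 6, 4 and 1 counts against 4, 7 and 4, with a log2 fold change of 1.03 without the filter (SE 0.76, unadjusted p = 0.171).

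The guanylate-binding protein genes, GTPases of cell-autonomous defense, overlapped between groups, with 2, 11 and 0 counts against 1, 0 and 6 for Gbp3 and 4, 7 and 2 against 2, 2 and 1 for Gbp2. Iigp1, an immunity-related GTPase, had 4, 8 and 1 counts against 1, 1 and 3. Ifit3, an antiviral RNA-binding protein, had 8, 4 and 0 against 0, 0 and 2, at a pooled rate 0.262 times as high with E2 (95% counting interval 0.0284 to 1.17), and 51.2% of its transcript windows also occur in another gene. Ifit1 had 8 counts, Stat2 7, Cxcl10 6, Cxcl9 and Irgm1 4 each, and Gbp4, Igtp and Isg15 1 each. The chemokine genes Cxcl9 and Cxcl10, among the strongest targets of interferon-γ, thus gave 10 counts together. Summed over the 15 interferon-induced members, the level was 170, 202 and 106 CPM in vehicle libraries and 183, 161 and 244 CPM in E2 libraries. Without Irf1 and Ubd it was 96.9, 97.6 and 47.2 CPM against 87.3, 85.6 and 119 CPM, and the groups overlapped.

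**Figure D3:**
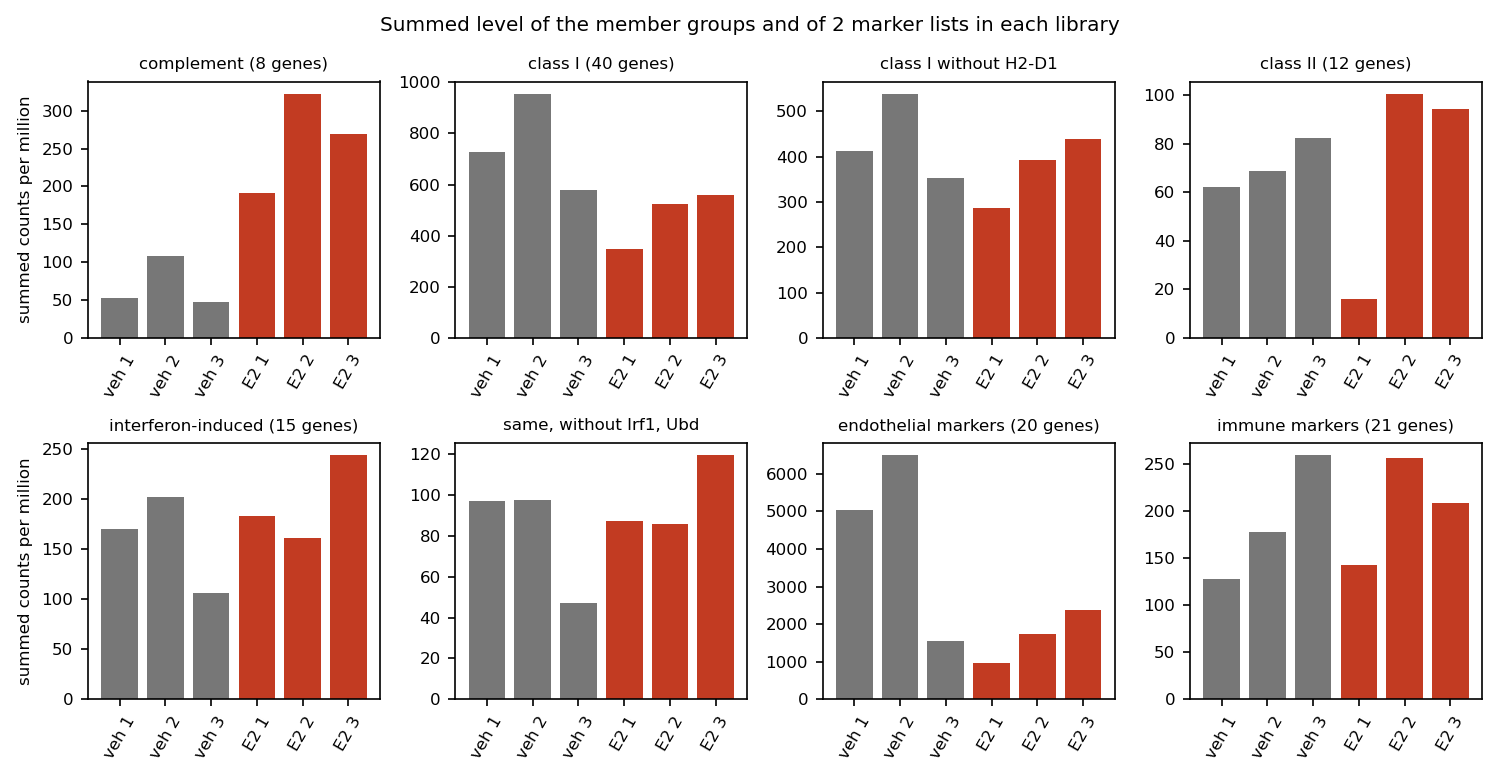
Summed level in CPM (vertical axis, from 0, one scale per panel) of the member groups and of the endothelial and immune marker lists in each vehicle (veh, gray) and E2 (red) library; each bar is 1 library, with no error bar. Complement separated the groups, at 47.2 to 109 against 191 to 322 CPM, and so did class I, at 578 to 956 against 349 to 557 CPM, whereas class I without H2-D1, class II and the interferon-induced genes overlapped, and the endothelial markers were highest in vehicle replicates 1 and 2.

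Of 60 further interferon pathway genes, 59 were in the table, 28 had 10 or more counts and 6 could be tested. Parp9 and Parp14 encode members of the ADP-ribosyltransferase family that interferon induces. Parp9 had 15, 46 and 13 counts in vehicle libraries and 25, 55 and 59 in E2 libraries, a log2 fold change of 1.57 (SE 0.49, unadjusted p = 0.00429, edgeR adjusted p = 0.0632), and its exons overlap those of Dtx3l on the opposite strand by 458 bases. Parp14 had 45, 71 and 4 counts against 3, 11 and 14, a log2 fold change of -1.17 (SE 0.50, unadjusted p = 0.0319, edgeR adjusted p = 0.151). Neither was called after adjustment with all libraries. Without vehicle replicate 3 the edgeR adjusted p was 0.000172 for Parp9 and 0.0087 for Parp14. Without vehicle replicates 1 and 2 the log2 fold changes were 0.86 and 0.24. The latter turned in direction, against a single vehicle library with 4 counts. Without the filter, 2 of the list were higher at an unadjusted p of 0.05 or less (Parp9 and Dhx58) and 3 lower (Parp14, Ifit2 and the receptor subunit Ifngr1), of 54 with a count, beside those shares of 3.27% and 6.81% over all genes, and edgeR called 0 after adjustment. Ifit2, an interferon-induced RNA-binding protein gene, had 33, 46 and 1 counts in vehicle libraries and 6, 4 and 4 in E2 libraries. Its level in vehicle replicate 3, 11.8 CPM, lay below those of the E2 libraries, 47.6, 20.1 and 19.9 CPM. Without vehicle replicates 1 and 2, and again without the filter, its log2 fold change turned to 1.43, against a single vehicle library. Those of Ifngr1 and Dhx58 were -2.20 and 3.44. The receptor subunit Ifnar1, the kinase Jak1, the repressor Irf2 and Znfx1 had log2 fold changes of 0.52, -0.45, -0.71 and -0.02, with unadjusted p-values of 0.184 to 0.974.

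Of the 80 members, only C3, H2-D1, H2-L and Irf1 passed the filter on low counts and were tested among 1682 genes. At an unadjusted p of 0.05 or less, C3 was higher and H2-D1 lower, beside 10.5% of tested genes higher and 15.1% lower. Among the 31 members with 10 or more counts, 6 lay above the vehicle libraries in every E2 library (C3, Cfb, Ubd, H2-Eb1, H2-Q7 and H2-Q9) and 4 below (H2-D1, H2-L, H2-K1 and Irf1), beside the same 6.17% and 10.5% of genes as above. For each of these the exact two-sided permutation p was 0.1, the smallest that 3 libraries against 3 allow.

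**Figure D4:**
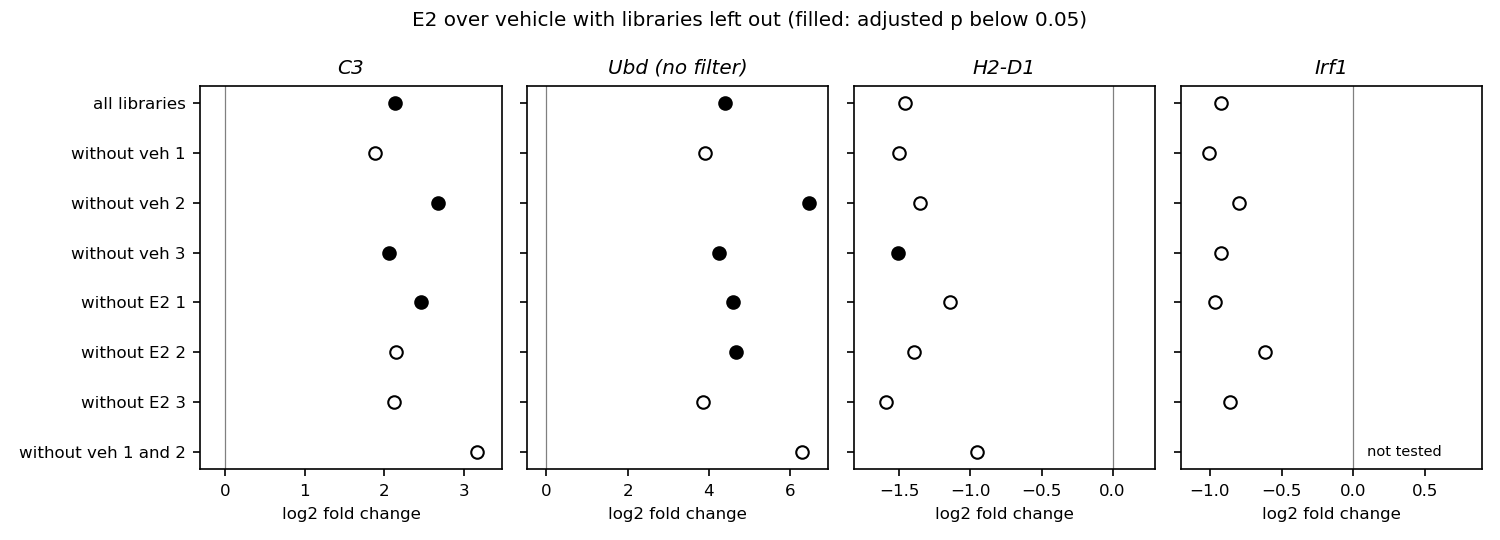
Log2 fold change of E2 over vehicle (horizontal axis, one scale per panel) for C3, Ubd, H2-D1 and Irf1 with all libraries and with the named vehicle (veh) or E2 libraries left out, from edgeR with the filter on low counts, or without it for Ubd; filled points have an adjusted p below 0.05. The direction stayed the same in every fit shown, Irf1 not being tested without vehicle replicates 1 and 2, a fit with a single vehicle library. With single libraries left out, C3 lost its call without vehicle replicate 1, E2 replicate 2 or E2 replicate 3. H2-D1 gained one only without vehicle replicate 3.

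Scaled to exon length, so that genes can be compared, H2-D1 was, of the members with a length, the one with the highest mean level over the 6 libraries, 82.1 CPM per kilobase, followed by B2m at 45.9, Ubd at 32.6, C3 at 23.9 and H2-T24 at 22.6. H2-L, at 116 CPM, has no exon length in the annotations used here and could not be placed in this order. The order differed between groups. In vehicle libraries H2-D1 (124 CPM per kilobase) and B2m (34.2) led and Ubd stood at 1.59, whereas in E2 libraries Ubd (63.5) and B2m (57.7) stood above H2-D1 (40.6) and C3 (39.1). In each E2 library the 95% Poisson intervals of Ubd, B2m and H2-D1 per kilobase overlapped, as for E2 replicate 1 at 18.8 to 111, 5.71 to 81.0 and 10.6 to 48.5, so their order within E2 is not resolved by these counts.

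Promoter sequences are shown for the pair of members called higher in at least one fit and for the classical class I heavy chain genes. In mm10, Ubd (ENSMUSG00000035186.6) spans chr17:37193892-37196095 on the plus strand, C3 (ENSMUSG00000024164.15) chr17:57203970-57228136 on the minus strand, H2-D1 (ENSMUSG00000073411.11) chr17:35262730-35267499 on the plus strand and H2-K1 (ENSMUSG00000061232.16) chr17:33996017-34000347 on the minus strand, as annotated by GENCODE. Each line gives the 250 bases before the RefSeq start in GRCm38.p6, 5′ to 3′ on the strand of the gene. Capitals mark a core of the IRF element (AANNGAAA on either strand) or a κB element (GGGNNTTCC or GGGNNNTTCC on either strand; the pair of forms can overlap each other).
C3 (chr17:57228137-57228386, minus strand): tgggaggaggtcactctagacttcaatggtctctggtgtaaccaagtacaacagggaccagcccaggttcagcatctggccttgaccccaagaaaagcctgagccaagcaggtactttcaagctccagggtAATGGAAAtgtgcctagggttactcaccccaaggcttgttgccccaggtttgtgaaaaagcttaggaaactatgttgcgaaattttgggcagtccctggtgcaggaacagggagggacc
Ubd (chr17:37193642-37193891, plus strand): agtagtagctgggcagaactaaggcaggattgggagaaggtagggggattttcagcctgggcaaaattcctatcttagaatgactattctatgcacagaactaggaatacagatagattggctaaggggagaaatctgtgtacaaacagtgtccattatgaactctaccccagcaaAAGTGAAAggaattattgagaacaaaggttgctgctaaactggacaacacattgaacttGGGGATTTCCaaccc
H2-D1 (chr17:35262844-35263093, plus strand): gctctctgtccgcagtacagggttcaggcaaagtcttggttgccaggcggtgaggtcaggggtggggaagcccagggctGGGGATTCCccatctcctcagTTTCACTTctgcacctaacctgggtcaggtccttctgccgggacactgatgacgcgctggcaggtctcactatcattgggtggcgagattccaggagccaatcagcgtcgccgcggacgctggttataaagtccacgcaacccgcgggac
H2-K1 (chr17:34000348-34000597, minus strand): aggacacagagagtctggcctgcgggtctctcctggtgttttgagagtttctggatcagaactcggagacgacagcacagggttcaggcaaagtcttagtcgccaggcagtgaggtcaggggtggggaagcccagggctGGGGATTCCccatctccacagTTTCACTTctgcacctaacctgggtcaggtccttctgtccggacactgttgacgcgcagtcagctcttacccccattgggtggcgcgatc

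The C3 window holds an IRF core that starts 119 bases before the start and no match to the κB letters. That of Ubd holds an IRF core at 74 bases and a κB match at 15 bases. H2-D1 and H2-K1 carry the κB match and the IRF core in the same order, at 171 and 150 bases before the start in H2-D1 and at 111 and 90 in H2-K1, and share an unbroken run of 47 bases that contains the κB match. The windows of H2-Q4, H2-Q6 and H2-Q7 hold a κB match followed by the same IRF core letters, and of these H2-Q7 lay above the vehicle libraries with E2, H2-Q4 overlapped and H2-Q6 had 1 count. RefSeq windows of 300 bases (250 before to 50 after the start) were matched for 58 members. Of these, 33 held the IRF core, among them 10 of 13 interferon-induced, 15 of 28 class I and 2 of 5 complement members, and 14 held a κB match. Of all 32851 windows, to which neither limit was applied, 23.9% held the IRF core and 9.74% a κB match. The palindromic estrogen response element (GGTCANNNTGACC) was in 0.07% of all windows and in 0 of the 58, and 1 arm of it alone (GGTCA on either strand, which the palindrome also holds) was in 40.5% of all windows and in 29 of the 58, among them those of C3, H2-D1 and H2-K1 with 2 each. These letters describe the windows, not bound sites.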

How the data were processed

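Ribosome-bound RNA was immunoprecipitated with an anti-GFP antibody, and the labels name a SMARTer Stranded total RNA kit, whereas the methods name a ribosome profiling kit. The authors deposited raw counts per gene symbol for 6 libraries. Their processing notes name bcl2fastq (2.17), FastQC (0.11.2), STAR (2.5.3a), featureCounts from Subread (1.6.0) and mm10, and neither labels nor methods state a strand setting.

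From the deposited counts, E2 was compared with vehicle by edgeR's quasi-likelihood test (4.0.16, R 4.3.3) over the whole table, with filterByExpr, TMM factors and Benjamini-Hochberg adjustment over the 1682 genes that passed. Levels are CPM, counts per 1000000 of the library total, given as mean ± SD where averaged. Exact permutation tests were added for single members, and counting intervals (95%, exact Poisson or conditional binomial) cover counting error only. Scripts were tested on simulated data. Alternatives were other filters, scalings and tools (DESeq2 1.42.0, limma-voom 3.58.1), each library left out, and a replicate block. Positions came from GENCODE M21 and promoters from RefSeq (GRCm38.p6).

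Members that passed the filter or had 10 or more counts were named with their count in every library, the rest with their total. Other pathway genes were named at an unadjusted p of 0.05 or less, the others named with values having been chosen after their values were seen. The members, lists and tests were chosen with earlier results of these data known. Lists of adipocyte (119 to 259 CPM), fibroblast (517 to 660 CPM), mural (153 to 699 CPM) and erythroid (7.94 to 75.6 CPM) markers were also summed. Mural markers made 699, 501 and 153 CPM in vehicle replicates 1 to 3 and 227 to 244 CPM with E2.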

Additional observations from a re-analysis of the deposited data

How the results depend on the processing

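Of the tested members, 1 (C3) was called higher and 0 lower at an adjusted p below 0.05. The number called higher was 0 with at least 10 counts in every library, 0 with a replicate block, 0 without vehicle replicates 1 and 2 together, and 2 without a filter. With each library left out in turn it was 0 to 1. The number called lower was 1 (H2-D1) by DESeq2, by edgeR's exact test and with library totals only, and 0 to 1 with each library left out. At an unadjusted p of 0.05 or less, 1 member was higher and 1 lower. These became 0 and 0 with at least 10 counts in every library, 4 and 3 without a filter, and 2 and 0 without vehicle replicates 1 and 2. The number lower was 2 with library totals only and 0 to 2 with each library left out, and that higher stayed at 1. Changes with another filter or fewer libraries come with other genes or samples in the fit. For the tools, the scaling and the replicate block the cause was not tested. No tested member changed direction in any of these fits. Without a filter, H2-Q10 turned from -2.46 to 3.01 without vehicle replicates 1 and 2, where vehicle had 0 counts.

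Replicate numbers did not pair the samples, since the deviations of same-numbered libraries from their group means correlated at -0.13, 0.03 and -0.20. With the replicate block, the log2 fold change of C3 was 2.20 (edgeR adjusted p = 0.0774). Without Rn45s in the library totals, the CPM ratios of C3, Ubd, H2-D1 and Irf1 kept their direction. With all libraries, 76 of 80 members had too few counts to pass the filter.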
